A study of Homo sapiens with 6 samples.

Results

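The genes described here encode receptors that place B cells within lymphoid organs, with CD69, a surface protein that controls one of them. They were chosen by name: 10 rows of the deposited count table whose Entrez identifiers map to CXCR3, CXCR4, CXCR5, CCR6, CCR7, GPR183, S1PR1, S1PR2, P2RY8 and CD69, out of 23459 rows in all. RNA-seq was done on 3 control and 3 IRF4-overexpressing libraries of Raji, an established Burkitt's lymphoma line that the labels call germinal centre-derived. Both groups were exposed for 5 days to lentivirus, which carried human IRF4 cDNA in one group and was the empty vector in the other, and were then kept for 7 days in puromycin at 3 µg/ml. Control cells thus also carry a lentiviral integration and went through drug selection. The promoter that drives the cDNA is not given in the sources used here. The labels do not say whether replicates were separate infections or cultures, so p-values reflect only how these libraries spread, and that spread may be technical.

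Chemoattractant receptors are membrane proteins that couple to G proteins and steer a cell along a gradient of a chemokine or a lipid. In a lymph node, CXCR5 draws B cells into the follicle and CCR7 draws them towards the T cell zone, while GPR183, a receptor for oxysterols, holds activated B cells at the outer edge of the follicle. Within the germinal centre, CXCR4 brings cells to the dark zone, and S1PR2 and P2RY8, which signal through the G protein alpha subunit GNA13, restrain migration and keep cells inside. S1PR1 guides cells out of the organ, and CD69 binds S1PR1 and takes it off the surface. CXCR3 and CCR6 respond to chemokines of inflamed or epithelial tissue. IRF4 is a transcription factor that binds DNA weakly on its own and pairs with ETS family factors on a composite motif.

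Library totals ranged from 27681979 to 46210702 counts. Levels are given in CPM, the usual depth-scaled count, with library sizes adjusted by TMM. The targeted gene, IRF4, averaged 1.26 ± 0.203 CPM in the controls and 132 ± 15.8 CPM where it was overexpressed (SD, n = 3 per group). The groups were compared with edgeR's quasi-likelihood test, and a gene was called where p, adjusted by Benjamini-Hochberg over the 12079 genes tested, was under 0.05. All 10 B cell markers looked at were tested, and their summed level spanned 3150 to 3230 CPM in the controls and 3130 to 3270 CPM with IRF4 overexpressed. None of the 10 passed by edgeR in either direction (2 higher and 0 lower at an unadjusted p under 0.05; 1 higher by DESeq2 and 0 by limma-voom), and CR2 and MS4A1 had the smallest p of them, with log2 fold changes of 0.48 and 0.26. Without IRF4-overexpressing replicate 1, 2 of the 10 were called higher and 6 lower, in a fit that called 19.9% of all genes higher and 25.1% lower. The libraries did not sit by group alone. An axis with 74.1% of the residual variance in log2 CPM, once group means were taken off, put control replicate 1 on one side, together with replicates 2 and 3 of the IRF4-overexpressing group, and the other 3 libraries on the opposite side. The fold change of each tested receptor gene is therefore also given within each side, where 1 group has a single library that is assumed to vary like the other libraries.

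Sequence before the gene start was at hand for 8 of the 10 genes, in 13 windows of RefSeq's GRCh38.p14, and CCR7 and CD69 had no entry. The 250 bases before each start were searched on both strands for the ETS-IRF composite (GGAA, any 2 bases, then GAAA) and the interferon-stimulated response element (GAAA, any 2 bases, then GAAA). The motifs can overlap each other. Of all 35114 windows of this length, 2.41% held the first and 3.02% the second. Among the receptor genes, 1 window held the composite letters, that of GPR183, which rose with IRF4, and 1 held the response element letters, that of the first start of CCR6, which did not pass the test. These are shown because they set a matched gene that rose beside a matched gene that did not pass. The GPR183 window is chr13:99307400-99307649 and the CCR6 window chr6:167111545-167111794, on the minus and the plus strand, both read 5′ to 3′ along the gene, with the match in capitals.
GPR183: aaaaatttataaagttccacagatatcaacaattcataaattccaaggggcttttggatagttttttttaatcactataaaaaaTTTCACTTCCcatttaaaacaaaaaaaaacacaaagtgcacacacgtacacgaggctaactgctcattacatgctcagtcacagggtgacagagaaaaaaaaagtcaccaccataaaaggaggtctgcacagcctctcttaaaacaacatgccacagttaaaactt
CCR6: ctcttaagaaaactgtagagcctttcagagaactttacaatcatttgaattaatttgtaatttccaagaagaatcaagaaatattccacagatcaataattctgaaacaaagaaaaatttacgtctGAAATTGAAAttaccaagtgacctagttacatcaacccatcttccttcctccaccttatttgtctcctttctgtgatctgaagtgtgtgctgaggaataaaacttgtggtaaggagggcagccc
In GPR183 the capitals are the composite on the opposite strand, with 156 bases between them and the gene start. In CCR6 they are the response element on the gene's own strand, with 114 bases to the start. Further motifs were searched in the same way. The octamer ATGCAAAT, found in 1.63% of all windows, matched 1 window of the receptor genes, at a further CCR6 start. The NF-kB motif, found in 9.96% of all windows, matched 1, at S1PR1, and the AP-1 letters TGANTCA, found in 6.57%, matched 0. A match is a description of letters and shows no binding.

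With IRF4 raised, CCR7, GPR183 and CD69 were called higher. CXCR5 and the germinal centre receptor genes CXCR4, S1PR2 and P2RY8 did not pass the test. CXCR4 and CXCR5 were nonetheless higher in every IRF4-overexpressing library than in every control library. CCR7 rose 3.42-fold, CD69 2.39-fold and GPR183 2.03-fold. Of the 8 genes abundant enough to be tested, 3 were called higher, where 2.98% of all genes tested were called higher, and 0 were called lower, where 0.182% of all were. At an unadjusted p under 0.05, 5 were higher and 0 lower, where 11.3% and 8.18% of all genes tested were. In 5 genes every IRF4-overexpressing library lay above every control library, which held for 13.5% of all genes tested. In 0 genes did every one lie below, which held for 11.9% of all. The median log2 fold change of the 8 genes was 0.50, beside 0.01 over all genes tested.

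The number of receptor genes called depended on the fit. DESeq2 called 5 higher and 0 lower, beside 4.78% and 1.45% of all genes, and limma-voom 4 and 0, beside 2.81% and 0.182%. With library sizes alone edgeR called 5 and 0 (4.16% and 0.108% of all genes), and with a term for the library side also 5 and 0 (5.87% and 3.22%). The side was read from these counts, so p-values of fits that use it are too small. Within the side with 1 control library 5 were higher and 1 lower (19.6% and 25.1% of all genes), and within the other side 5 and 0 (6.85% and 3.01%). Without IRF4-overexpressing replicate 1, 5 were higher and 2 lower, among 19.9% and 25.1% of all genes. Without control replicate 1, 2 or 3, 1 gene was higher, where 1.02%, 0.975% and 1.11% of all genes were, and 0 were lower, where 0.0244%, 0.0244% and 0.0245% were. Without IRF4-overexpressing replicate 2 or 3 the receptor counts were again 1 and 0, with 1.25% and 1.28% of all genes higher and 0.0245% and 0.0246% lower. The gene still called in each of these 5 fits was CCR7. With a replicate block edgeR called 0 receptor genes in either direction, beside 3 higher and 0 lower over all genes.

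**Figure D1:**
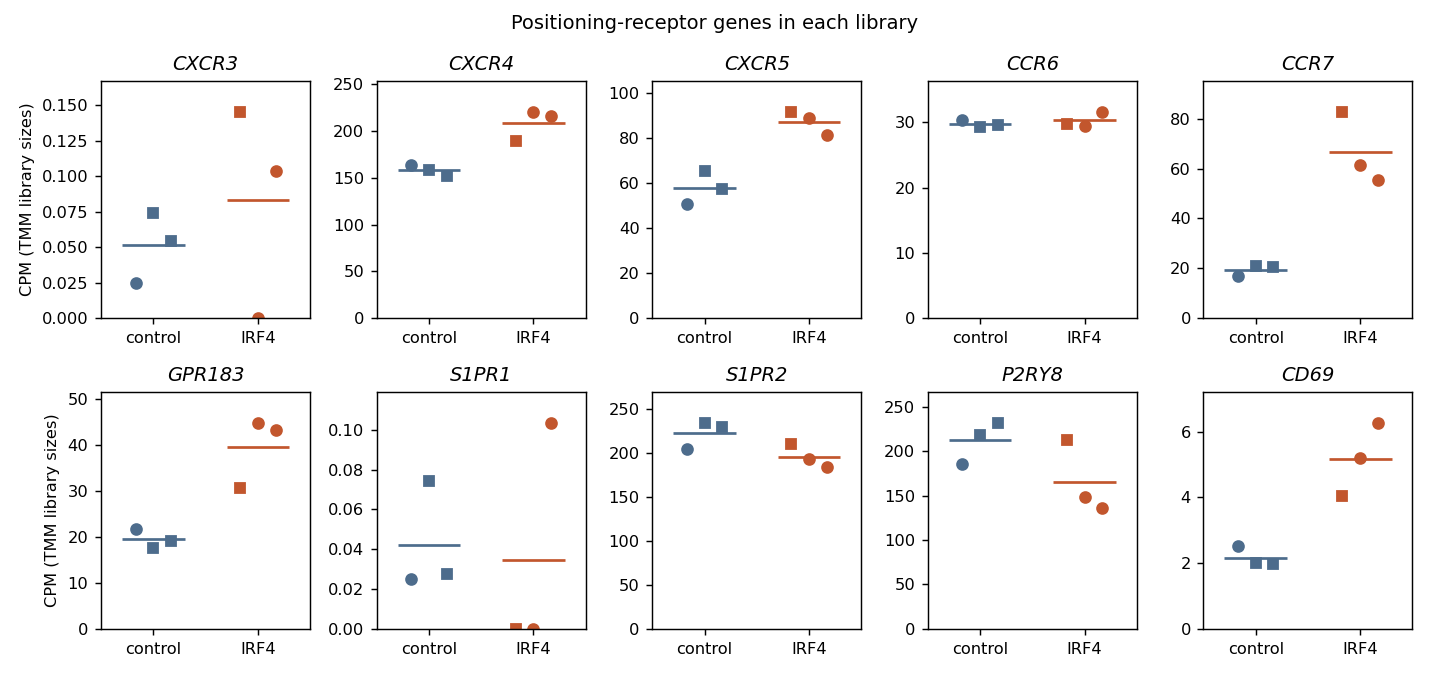
Level of each of the 10 genes in each library, in CPM on axes that start at 0 and differ between genes; points are libraries in the order of replicates 1 to 3, lines are group means, and circles and squares mark the 2 sides of the library axis. CCR7, GPR183, CD69, CXCR4 and CXCR5 have no overlap between groups, while CCR6 sits at the same level in both and CXCR3 and S1PR1 are near 0.

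CCR7, the receptor for CCL19 and CCL21, had the largest change. Control replicates 1, 2 and 3 stood at 17, 20.8 and 20.6 CPM, and the matching numbers of the IRF4-overexpressing group at 82.7, 61.4 and 55.4 CPM. The lowest IRF4-overexpressing library was thus well above the highest control library, and the highest of all was IRF4-overexpressing replicate 1. The log2 fold change was 1.77 with an SE of 0.18 (edgeR adjusted p = 0.00375), rank 70 by p among the genes tested. On the side with a single control library it was 1.78, and on the opposite side 2.04. CCR7 was called without each of the 6 libraries in turn, with log2 fold changes of 1.58 to 1.90 and edgeR adjusted p of 6.66e-05 to 0.049. With a replicate block edgeR did not call it (adjusted p = 0.105).

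GPR183, also known as EBI2, stood at 21.7, 17.7 and 19.0 CPM in the 3 controls, against 30.6, 44.8 and 43.1 CPM in replicates 1, 2 and 3 with IRF4 overexpressed. The groups did not overlap, and IRF4-overexpressing replicate 1 was the lowest of its group, the reverse of its place for CCR7. The log2 fold change was 1.02 with an SE of 0.17 (edgeR adjusted p = 0.0246), and 1.02 and 0.77 within the sides with 1 control and 1 IRF4-overexpressing library. The gene lies within UBAC2, on the other strand, with no shared exon bases in GENCODE v29, and UBAC2 itself had a log2 fold change of -0.18 (edgeR adjusted p = 0.315). The call was lost without control replicate 1, 2 or 3 (edgeR adjusted p = 0.0776, 0.115 and 0.114) and without IRF4-overexpressing replicate 2 or 3 (0.0771 and 0.0855), although the log2 fold change then stayed between 0.92 and 1.09. It was also lost with a replicate block (edgeR adjusted p = 0.248).

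CD69, an early activation marker of lymphocytes, was the weakest of the tested genes. The controls held 2.51, 2.01 and 1.97 CPM (54 to 101 counts per library), and IRF4-overexpressing cells 4.04, 5.21 and 6.28 CPM (139 to 303 counts). Every IRF4-overexpressing library was above every control library. The log2 fold change was 1.26 with an SE of 0.20 (edgeR adjusted p = 0.0228), and within the sides it was 1.20 and 1.06. Like GPR183, CD69 lost its call without control replicate 1, 2 or 3 (edgeR adjusted p = 0.0737, 0.116 and 0.113). It also lost it when replicate 2 or 3 of the IRF4-overexpressing group was left out (0.0761 and 0.0697), and with a replicate block (0.237).

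S1PR1, the egress receptor that CD69 opposes, had 1, 2 and 1 counts in control and 0, 0 and 5 counts in IRF4-overexpressing libraries. It was too low to be tested, and the ratio of the group sums, 1.08, had an exact counting interval (95%) of 0.233 to 5.45. The transcription factor gene KLF2, known to drive S1PR1 in lymphocytes, had 0 counts in all 6 libraries, which allows a mean level of up to 0.029 CPM in the controls and 0.0251 CPM with IRF4 overexpressed, at a floor of 3 counts per group. CD69 mRNA was thus higher in cells where the message of its partner was barely detected in either group.

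CXCR5, the receptor for CXCL13, measured 50.7, 65.6 and 57.5 CPM in the controls, against 91.8, 89.1 and 81.7 CPM with IRF4 overexpressed. The groups did not overlap, and the log2 fold change of 0.60 (SE 0.12) had an edgeR adjusted p of 0.05003, just over the threshold. Within the sides it was 0.75 and 0.62. DESeq2 and limma-voom called it (adjusted p = 0.00292 and 0.0464), as did edgeR with library sizes alone (adjusted p = 0.0244). EdgeR with a term for the library side also called it (adjusted p = 0.00781), but that p is too small because the side was read from these counts. Without IRF4-overexpressing replicate 1 edgeR called it too (adjusted p = 0.00486). Without any other single library the edgeR adjusted p was 0.0978 to 0.244. Nor did edgeR call it with median-of-ratios scaling (adjusted p = 0.0575), no filter (0.0636), the 1 CPM filter (0.0615) or a replicate block (0.29). In GENCODE v29 the exons of all its transcripts together share 3925 bases with BCL9L on the opposite strand. The deposited width of CXCR5 is smaller, at 3107 bases, so the shared part of what was counted cannot be given. How the counting treated strand is not given in the sources used here. BCL9L was lower than CXCR5 in every library, at 7.00, 16.8 and 19.1 CPM in the controls and 15.4, 4.02 and 3.67 CPM with IRF4 overexpressed. Its level differed between the library sides, and within each side it was lower with IRF4 overexpressed than in the controls. The part of BCL9L reads in the CXCR5 counts was not tested.

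CXCR4, the receptor for CXCL12, measured 163.5, 158.2 and 152.5 CPM in the controls, against 189.7, 220.6 and 216.7 CPM with IRF4 overexpressed. All IRF4-overexpressing libraries were above all controls. The log2 fold change, 0.40 (SE 0.09), did not pass (edgeR adjusted p = 0.0821). Within the sides it was 0.42 and 0.33. DESeq2 called it (adjusted p = 0.0112), as did edgeR with library sizes alone (adjusted p = 0.0373) and without IRF4-overexpressing replicate 1 (0.00111). EdgeR with the side term also called it (adjusted p = 0.02), where p is again too small. CXCR4 was not called by limma-voom (adjusted p = 0.0813). Nor did edgeR call it with median-of-ratios scaling (adjusted p = 0.0778), no filter (0.105), the 1 CPM filter (0.0601) or a replicate block (0.391). Without any other single library the edgeR adjusted p was 0.153 to 0.322.

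S1PR2, a receptor for sphingosine 1-phosphate that inhibits migration, measured 204.1, 234.4 and 229.2 CPM in the controls, against 209.7, 193.4 and 183.8 CPM with IRF4 overexpressed. The groups overlapped, and the log2 fold change was -0.19 with an SE of 0.10 (edgeR adjusted p = 0.317), with -0.11 within each side. P2RY8, a receptor for the glutathione conjugate S-geranylgeranyl-L-glutathione, measured 185.7, 218.3 and 231.9 CPM in the controls, against 212.3, 148.0 and 135.4 CPM with IRF4 overexpressed. IRF4-overexpressing replicate 1 sat among the controls, while the other 2 libraries of its group lay below them. The log2 fold change was -0.36 with an SE of 0.19 (edgeR adjusted p = 0.313), and it was -0.39 within the side with 1 control library and -0.05 within the other. Without IRF4-overexpressing replicate 1, when both remaining libraries of the group share a side with control replicate 1, S1PR2 and P2RY8 were called lower (log2 fold changes -0.25 and -0.59, edgeR adjusted p = 0.0399 and 0.00259). P2RY8 is a gene of the region shared by the X and Y chromosomes, so reads that fit both copies could have been counted or dropped in ways that cannot be checked here.

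CCR6, the receptor for CCL20, was the steadiest of the genes, at 29.3 to 30.4 CPM in the controls and 29.5 to 31.6 CPM with IRF4 overexpressed. Its log2 fold change was 0.02 with an SE of 0.08 (edgeR adjusted p = 0.876), and 0.01 and 0.05 within the sides with 1 control and 1 IRF4-overexpressing library. Its exons share 3008 bases with Z94721.2 on the same strand in GENCODE v29, and those of S1PR2 share 83 with DNMT1, so reads there could belong to either gene. CXCR3, the receptor for CXCL9, CXCL10 and CXCL11, was too low to be tested, with 1, 2 and 2 counts in control and 5, 0 and 5 in IRF4-overexpressing libraries. The ratio of the group sums was 1.73, with an exact counting interval of 0.539 to 6.45. Counting error thus leaves room for no change of CXCR3, or for a fall or a rise within those bounds.

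**Figure D2:**
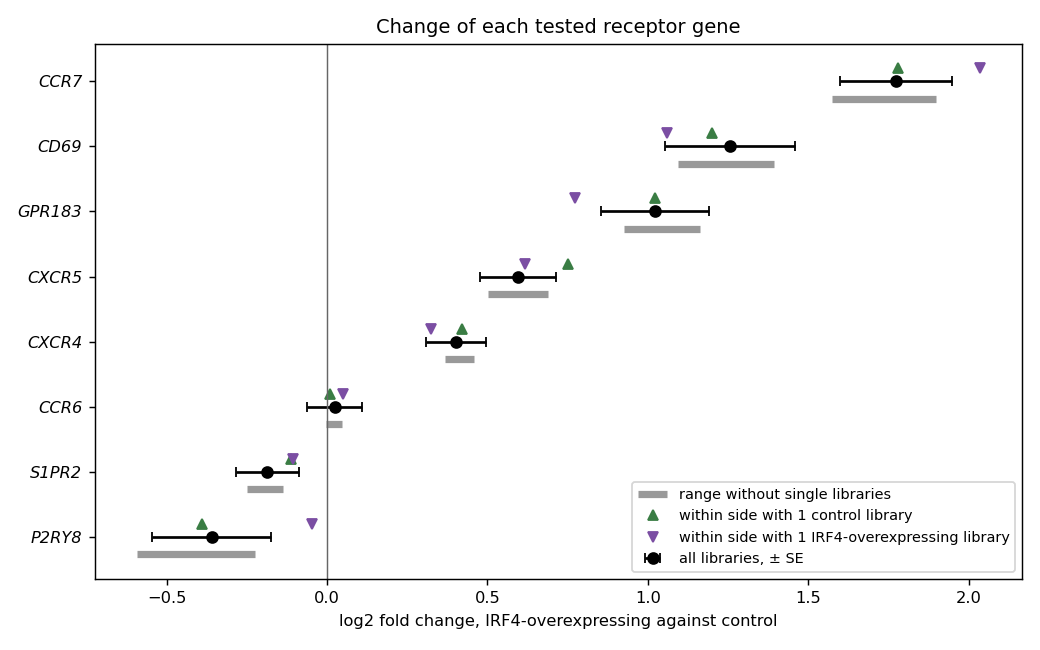
Log2 fold change of each of the 8 tested genes, IRF4-overexpressing against control; black points with bars are the estimates from all libraries ± SE, triangles the values within each library side, and grey bars the range over the 6 fits without a single library. CCR7, CD69, GPR183, CXCR5 and CXCR4 lie above 0 in all of these fits, and P2RY8 and S1PR2 below it.

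The side of the library axis moved the genes in different directions. After allowing for group, CD69, GPR183 and CXCR4 were higher on the side of control replicate 1, by 0.42, 0.39 and 0.15 on the log2 scale, and P2RY8, CCR7, CXCR5 and S1PR2 were lower there, with differences of -0.42, -0.38, -0.18 and -0.16. CCR6 differed by 0.05. What the axis stands for was not tested.

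Levels were compared between genes per length, as CPM per kilobase of the deposited gene width. In control libraries the order was CXCR4 (71.4 ± 2.48), S1PR2 (62.1 ± 4.52), P2RY8 (25.0 ± 2.80), CXCR5 (18.6 ± 2.40), GPR183 (10.9 ± 1.14), CCR7 (8.91 ± 0.975), CCR6 (4.91 ± 0.0894) and CD69 (0.867 ± 0.122; SD, n = 3 each). The ranges of neighbours among these 8 did not overlap. CXCR3 and S1PR1 followed at 0.0275 and 0.0138 CPM per kilobase and overlapped each other. In IRF4-overexpressing libraries CCR7 came next after CXCR4 and S1PR2, at 30.4 ± 6.57, beside CXCR5 at 28.2 ± 1.68, with overlapping ranges. GPR183 followed at 22.1 ± 4.33 and P2RY8 at 19.5 ± 4.87 CPM per kilobase, also overlapping. CXCR4 and S1PR2 remained the highest of the 10 in both groups, at 94.4 ± 7.60 and 54.6 ± 3.65 CPM per kilobase with IRF4 raised.

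**Figure D3:**
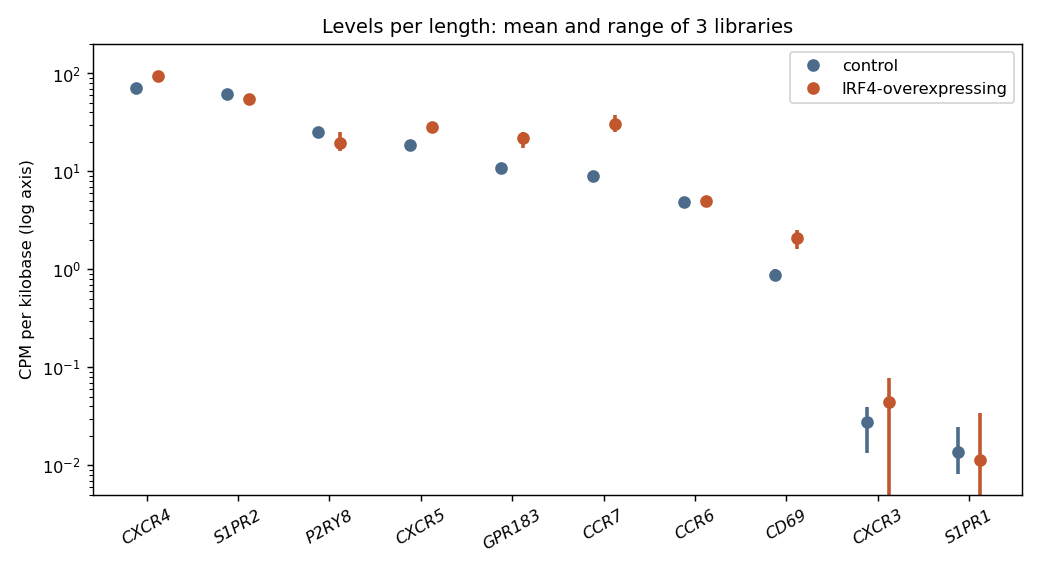
Level of each gene per length, in CPM per kilobase on a log axis, with genes ordered by their control level; points are means and lines run from the lowest to the highest of 3 libraries, reaching the lower edge of the axis where a library had 0 counts. CCR7 moves from 8.91 in control to 30.4 in IRF4-overexpressing libraries and reaches the level of CXCR5, while S1PR1 and CXCR3 stay under 0.1 in all libraries.

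The balance of CCR7 against CXCR5 is known to set where an activated B cell stops between the T cell zone and the follicle. Within a library this ratio does not depend on how libraries are scaled. Per length, it was 0.477, 0.450 and 0.511 in control replicates 1, 2 and 3 and 1.28, 0.980 and 0.964 in the IRF4-overexpressing ones. CXCR5 message was thus in excess in all 3 control libraries, and the levels were near equal with IRF4 raised. The mean log2 ratio differed by 1.16, or 2.23-fold, and by 1.02 to 1.23 without single libraries. Within the sides with 1 control and 1 IRF4-overexpressing library it differed by 1.03 and 1.42. The part of BCL9L reads in the CXCR5 counts, and so in this ratio, was not tested. Over all libraries an exact two-sided permutation test gave p = 0.1, the smallest that 3 against 3 libraries allow. The ratio was chosen after the values were seen, as 1 of 4, and with adjustment over the 4 the exact permutation p was 0.4. The ratios of CXCR4 to CXCR5, GPR183 to CXCR5 and S1PR2 to P2RY8 had log2 differences of -0.20, 0.41 and 0.20, and their groups overlapped (exact permutation p = 0.4, 0.2 and 0.4). For S1PR2 to P2RY8 the difference was 0.28 within the side with 1 control library and -0.06 within the other.

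**Figure D4:**
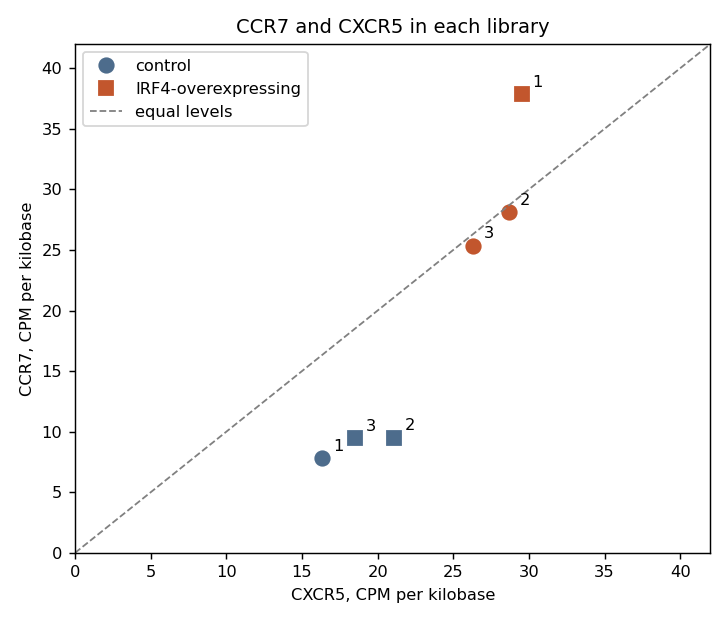
CCR7 against CXCR5 in each library, both in CPM per kilobase; numbers are replicates, circles and squares the 2 sides of the library axis, and the dashed line marks equal levels. The 3 control libraries lie under the line at ratios of 0.450 to 0.511, while IRF4-overexpressing replicate 1 lies above it at 1.28 and replicates 2 and 3 lie just under it at 0.980 and 0.964.

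The genes whose profile over the 6 libraries was most like each called receptor gene were found by the root-mean-square difference of log2 CPM, centred per gene, among the 10966 genes that averaged 1 CPM or more. Nearest to CCR7 were OAS2, an antiviral enzyme induced by interferon, SLFN5 and TNFRSF9, the costimulatory receptor 4-1BB, at 0.110, 0.171 and 0.199. Nearest to CD69 were MIR155HG, the host transcript of a microRNA of activated B cells, ADAMDEC1 and GIMAP2, at 0.055, 0.089 and 0.097. Nearest to GPR183 were GMFG, PIK3IP1 and PPP1R2, at 0.044, 0.059 and 0.061. The 6 libraries share the group difference and the library axis, so these distances describe profiles only.

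Among 22 genes for the ligands of these receptors and for the enzymes and carriers that make or move them, 11 were tested. CXCL9, CXCL10 and CXCL11, all ligands of CXCR3, were the 3 called higher, with log2 fold changes of 3.32, 3.15 and 2.93 (SE 0.20, 0.20 and 0.35, edgeR adjusted p = 8.94e-04, 8.94e-04 and 0.00794). These 3 stand beside 2.98% of all genes tested that edgeR called higher. CXCL11 had 15, 10 and 10 counts in the controls and passed the filter on low counts only through the IRF4-overexpressing group. Its call is thus a description, and its fold rests on few control counts. CXCL11 lost its call without control replicate 1 or 2 (edgeR adjusted p = 0.0613 and 0.0502). None was lower by edgeR, DESeq2 or limma-voom (1 at an unadjusted p under 0.05), with a median log2 fold change of 0.23 over the list. CXCL12 and CCL21 had 0 counts in all libraries, CXCL13 and CCL19 had 5 and 2 counts in total, all in IRF4-overexpressing libraries, and CCL20 had 13, also all there. More genes had counts in every IRF4-overexpressing library (15144 to 15576) than in any control library (14276 to 14488). The share of all genes counted only with IRF4 overexpressed was not taken. The few counts of CXCL13, CCL19 and CCL20 are therefore not read as a change of these genes. CH25H, which makes the oxysterol precursor of the GPR183 ligand, had 0 counts in all libraries, and CYP7B1, which completes it, had 1 count in all. Of the sphingosine kinases, SPHK1 had 0 counts and SPHK2 averaged 23.4 ± 4.93 CPM in the controls and 19.8 ± 3.64 CPM with IRF4 overexpressed (SD, n = 3 per group), with overlapping libraries.

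Of 39 other chemoattractant and lysolipid receptor genes, 15 were tested, 3 were called higher and 0 lower by edgeR (7 and 0 at an unadjusted p under 0.05; 4 and 0 by DESeq2, 2 and 0 by limma-voom), with a median log2 fold change of 0.35. Of all genes tested, edgeR called 2.98% higher and 0.182% lower, and 11.3% and 8.18% at an unadjusted p under 0.05. PTGER4, a prostaglandin E2 receptor, averaged 24.9 ± 1.57 CPM in the controls and 38.1 ± 3.88 CPM with IRF4 overexpressed (SD, n = 3 per group), and its log2 fold change was 0.61 (SE 0.11, adjusted p = 0.0365 by edgeR). GPR65, a proton-sensing receptor, averaged 4.09 ± 0.102 and 7.12 ± 1.29 CPM (SD, n = 3 per group), with a log2 fold change of 0.80 (SE 0.16, adjusted p = 0.0485 by edgeR). ACKR1, an atypical chemokine receptor that does not signal through G proteins, passed the filter on low counts only through the IRF4-overexpressing group, so its call is a description and its fold rests on few control counts. It had 3, 2 and 1 counts in control and 24, 17 and 25 in IRF4-overexpressing libraries (log2 fold change 3.19, SE 0.43, edgeR adjusted p = 0.0123). PTGER4 and GPR65 lost their calls without any single library other than IRF4-overexpressing replicate 1 (edgeR adjusted p = 0.114 to 0.142 and 0.126 to 0.193). GPR65 was also not called by limma-voom (adjusted p = 0.0594) or by edgeR within the side with 1 IRF4-overexpressing library (0.0574). ACKR1 lost its call when any control replicate (1, 2 or 3) was left out, and when replicate 3 of the IRF4-overexpressing group was (edgeR adjusted p = 0.0772, 0.0704, 0.067 and 0.0532). Among the other sphingosine 1-phosphate receptors, named after their values were seen, S1PR3 and S1PR5 had 0 counts in all libraries, and S1PR4 was at 44.3 to 56.4 CPM in the controls and 52.1 to 71.8 CPM with IRF4 overexpressed (log2 fold change 0.37, edgeR adjusted p = 0.258).

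Of 6 tested receptor kinases and arrestins, which switch receptors off, 0 were called in either direction by edgeR, DESeq2 or limma-voom (0 higher and 1 lower at an unadjusted p under 0.05). GRK5 and GRK3 had the smallest p, with log2 fold changes of -0.34 and -0.19. Without IRF4-overexpressing replicate 1 the higher and lower calls by edgeR became 5 and 2 among the ligand genes, 9 and 1 among the other receptors, and 0 and 3 among the kinases and arrestins, where the same fit called 19.9% of all genes higher and 25.1% lower.

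**Figure D5:**
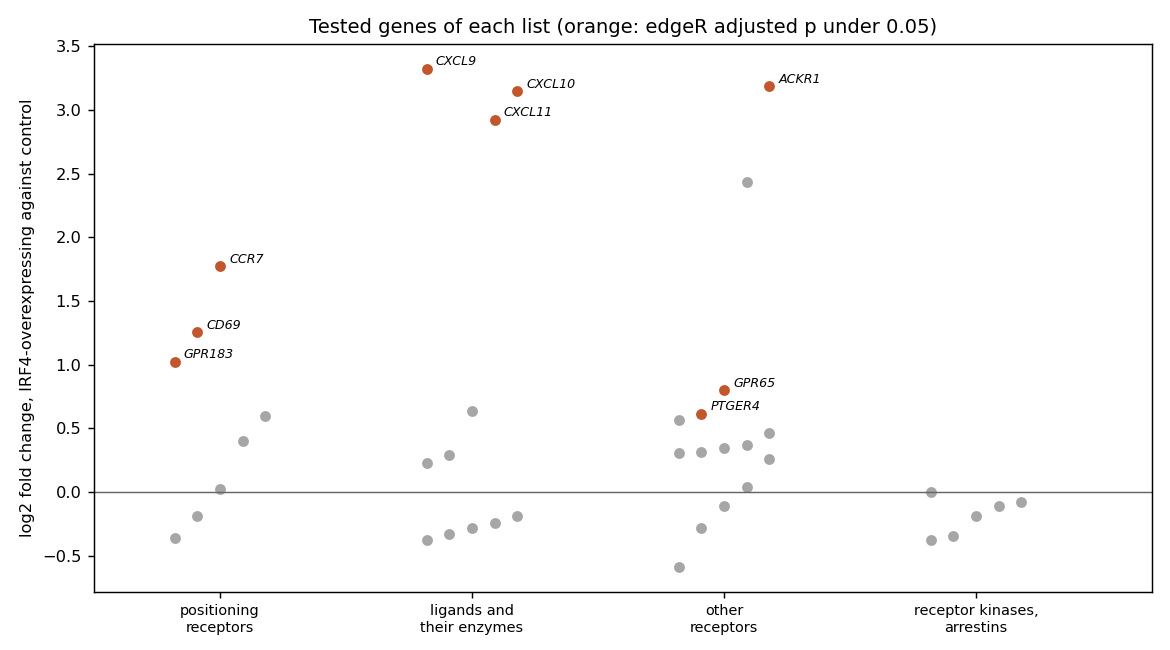
Log2 fold change of every tested gene of the receptor set and of 3 lists around it, with called genes in orange and named and the others in grey; sideways position within a list carries no meaning. Called genes are all above 0, with 3 in each of the receptor set, the ligand list and the list of other receptors, and 0 in the list of kinases and arrestins.

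Because T cells and myeloid cells also carry CCR7, CD69 and GPR183, markers of other cells were read in the same libraries. The 10 T and NK cell markers summed to 0.223 to 0.465 CPM in the controls and 0.518 to 0.621 CPM with IRF4 overexpressed. None was high enough to be tested, and CD2, CD8A and GNLY had 0 counts throughout. More genes of all kinds had counts in every IRF4-overexpressing library than in any control library. The higher sum is therefore not read as a change of T or NK cell message. The 10 myeloid markers summed to 2.81 to 3.20 CPM and 5.62 to 9.01 CPM, with MPO, FCGR3A and S100A9 at 0 in all libraries. Of 4 tested myeloid markers 1 was called higher, ITGAM (log2 fold change 1.92, edgeR adjusted p = 0.00256), beside 2.98% of all genes called higher. DESeq2 and edgeR with the side term each called 2. CSF1R, named after its values were seen, had 0.324, 0.521 and 0.438 CPM in the controls and 4.07, 1.22 and 1.39 CPM with IRF4 overexpressed, and its log2 fold change of 2.38 did not pass (edgeR adjusted p = 0.0846). The 10 epithelial and mesenchymal markers summed to 42.7 to 53.9 CPM and 57.4 to 62.8 CPM, mostly from VIM, and neither of the 2 tested, COL1A1 and VIM, passed (log2 fold changes 1.46 and 0.22, edgeR adjusted p = 0.192 and 0.319). The part of such cells in the receptor results was not tested. In bulk RNA, a larger share of cells with a message and more message per cell cannot be told apart.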

How the data were processed

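The authors deposited 1 table of read counts by Entrez gene, not normalized, with a gene width in bases. The whole numbers in it show the unit, and the width was used for levels per length alone. Control columns are named WT in the table. Per the submitters' processing notes the builds were mm9 and hg19; aligner, counting tool, annotation and strand setting are not given in the sources used here. Symbols came from a RefSeq table of GRCh38.p14, which matched 23308 of 23459 rows; the rest held 0.122% of counts. No gene coordinates of the other build are given, and promoter windows are credited to RefSeq GRCh38.p14.

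The fit used edgeR 4.0.16 (R 4.3.3) with TMM, filterByExpr and a group-only design, two-sided, over 12079 genes; SEs are the absolute log2 fold change over the square root of F. CPM used TMM-scaled library sizes. Alternatives were scaling by DESeq2's median of ratios or by totals, filtering nothing or requiring 1 CPM in at least 3 libraries, testing with DESeq2 1.42.0 or with voom from limma 3.58.1, the replicate block, each library left out, a side term and fits within sides. The side was the sign of the first principal component of residual log2 CPM (prior count 2); it was read from these counts, so p-values of fits that use it are too small.

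Genes named were the 10 receptor genes, IRF4, the called genes of each list (or its 2 smallest p), the 3 nearest profiles of each called receptor gene, and others chosen after their values were seen (further receptors, ligands, enzymes, KLF2 and CSF1R, and genes whose exons or span overlap a receptor gene). The receptor genes, lists and alternatives were chosen with earlier results of these data known. The test was run on simulated counts of independent libraries with no library axis, so that check does not cover the axis seen in these data. No replicate pair was a duplicate (chi-square per gene 6.49 to 184.7). Some results are not reported here. Counting intervals and floors cover counting error only. Figures used matplotlib 3.10.9.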

Additional observations from a re-analysis of the deposited data

How the results depend on the processing

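Each tested receptor gene kept the direction of its change under all 16 alternatives, except CCR6, whose log2 fold change was -0.0027 without IRF4-overexpressing replicate 3. Without single libraries the value of CCR6 ran from there to 0.0479, and with library sizes alone it was 0.12. The count of 3 called higher was 5 with library sizes alone, DESeq2, the side term and within each side, and 1 to 5 without single libraries; 0 were lower, against 1 within the side with 1 control library and 0 to 2 without single libraries. Over all genes, 360 were higher and 22 lower. This became 577 and 175 with DESeq2, 709 and 389 with the side term, 2372 and 3031 within the side with 1 control library, 827 and 364 within the other, and 120 to 2436 and 3 to 3071 without single libraries, the highest of each without IRF4-overexpressing replicate 1. With library sizes alone 13 were lower, and the median over all genes moved from 0.01 to 0.10 on the log2 scale. The cause was not tested. The replicate block left 3 genes higher and 0 lower, and 0 receptor genes. Same-numbered libraries did not deviate together (correlations of -0.65, -0.22 and -0.468 for numbers 1, 2 and 3), and no library correlated best with its own number. With so few libraries and the library axis dominating their deviations, this cannot show whether same-numbered libraries shared an infection, culture or preparation. No value of S1PR1 could be had without IRF4-overexpressing replicate 3, since its remaining counts there are 0. Depth limits S1PR1 and CXCR3.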
